A study of Mus musculus with 6 samples.

Results

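The genes described here are Cd200 and the 4 CD200 receptor genes of the mouse that the array names, Cd200r1, Cd200r2, Cd200r3 and Cd200r4. They are 5 of 30342 gene names on the array, and all 5 were among the 16413 genes measured well enough to be tested, although Cd200r3 met that requirement only at its minimum of 3 arrays. The set was chosen on the measured difference between the Eomes-positive and Eomes-negative cells in these same arrays, so the differences of its members are given as descriptions, without a test. The cells were γδ T cells sorted from the spleen of Eomes-IRES-GFP mice (allele Eomestm1.1Twa, C57BL6 background), in which green fluorescent protein made from the Eomes locus marks cells that transcribe Eomes, a T-box transcription factor. Eomes-positive cells were sorted as TCRβ- TCRγδ+ CD3+ GFP+ and Eomes-negative cells as TCRβ- TCRγδ+ CD3+ GFP-. Both groups carried the reporter allele and came from suspensions first depleted of B220+, CD4+ and CD8β+ cells. Each group had 3 arrays from 3 independent sorts, and each sort pooled the spleens of 4 to 6 mice. The mice were 9 weeks old in sort 1, 9.5 weeks in sort 2 and 7.5 weeks in sort 3, with 9, 9 and 4 ng of input RNA in those sorts.

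CD200 is a membrane glycoprotein of the immunoglobulin superfamily with a short cytoplasmic tail, and it acts as a ligand on the surface of B cells, activated T cells, follicular helper T cells, neurons and endothelium. Its receptor CD200R1 is found mainly on myeloid cells and on some T cells, among them γδ T cells that make IL-17, and it inhibits without a classical ITIM: its tail recruits the adaptor Dok2, which brings in the Ras GTPase-activating protein. The related mouse receptors have short tails and pair with the adaptor DAP12, which carries an activating motif, and whether they bind CD200 has been disputed.

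All 5 genes were read by 1 probe each, printed at 4 spots per array, and the probes lie on mouse chromosome 16 (build mm9, as the files give it). The sequences are shown because 2 of the receptor probes resemble each other. A probe with no gene name, placed 1095 bases before the Cd200r2 probe on the same strand, resembles them too and is also shown. Each is written 5′ to 3′. Capitals in the Cd200r4 probe and in the unnamed probe mark the 27 bases both share without a gap, and capitals in the Cd200r3 probe mark the 15 bases it shares with the Cd200r4 probe.
Cd200 (chr16:45382387-45382446, minus strand): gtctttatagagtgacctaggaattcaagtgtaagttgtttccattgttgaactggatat
Cd200r1 (chr16:44794670-44794729, plus strand): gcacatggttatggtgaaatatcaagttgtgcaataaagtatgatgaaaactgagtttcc
Cd200r4 (chr16:44838106-44838165, plus strand): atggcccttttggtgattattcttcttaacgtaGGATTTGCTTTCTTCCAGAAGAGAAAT
Cd200r3 (chr16:44957886-44957945, plus strand): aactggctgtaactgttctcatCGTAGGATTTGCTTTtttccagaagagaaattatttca
Cd200r2 (chr16:44915823-44915882, plus strand): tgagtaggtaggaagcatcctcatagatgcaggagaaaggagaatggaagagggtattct
unnamed probe (chr16:44914728-44914787, plus strand): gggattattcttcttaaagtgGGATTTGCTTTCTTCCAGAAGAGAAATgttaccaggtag

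At the best ungapped offset of the 60-base probes, which can leave bases at the ends unpaired, the Cd200r3 and Cd200r4 probes matched at 41 bases. Every other pair of the 5 member probes matched at 20 to 24 bases, with shared runs of 5 to 7 bases. The unnamed probe matched Cd200r4 at 45 bases and Cd200r3 at 40. Levels of the receptors with similar probes are therefore open to cross-hybridisation, which was not tested. This includes signal from the Cd200r2 locus, where the unnamed probe lies, at the Cd200r4 probe. The 4 receptor probes span 163.2 kb, in the order Cd200r1, Cd200r4, Cd200r2 and Cd200r3, and the Cd200 probe lies 424.5 kb beyond Cd200r3 on the opposite strand.

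Levels below are processed signals on the log2 scale after subtraction of the log2 of their array's 75th percentile, so that a level of 0 equals that percentile. The level of one probe is not set against that of another. Before scaling, the 75th percentile of the Eomes-positive arrays was 1578, 1607 and 533 intensity units in sorts 1, 2 and 3, against 1681, 1679 and 550 on the Eomes-negative arrays, so both arrays of sort 3, made from less RNA, were dimmer. Between 47.7% and 56.6% of probes were measured per array. Eomes itself stood at 5.31, 4.96 and 4.48 in Eomes-positive cells and at 0.72, 0.88 and -1.14 in Eomes-negative cells. The γδ T cell markers had summed levels of 296 to 400 in Eomes-positive cells and 346 to 495 in Eomes-negative cells, with 6 of 8 listed genes on the array and all 6 measured on every array. Both arrays of sort 2 stood apart through neutrophil genes, whose summed level was 1.66, 241 and 1.67 times the 75th percentile in Eomes-positive cells of sorts 1, 2 and 3, and 1.93, 205 and 1.81 times in Eomes-negative cells. All 7 neutrophil markers were measured on both arrays of sort 2, against 4 of 7 on each of the other 4 arrays. Macrophage, monocyte and dendritic cell markers were also highest in sort 2, as given below. The difference of each member is therefore also given without sort 2.

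Of the 5 members, 4 had every Eomes-positive level above every Eomes-negative level (Cd200, Cd200r1, Cd200r4 and Cd200r2), and the groups overlapped for Cd200r3. Among all 16413 tested genes, 8.53% were separated in this direction. Because the members were chosen from this comparison, nothing is read from their count against that share. The median difference of all tested genes was -0.01.

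**Figure D1:**
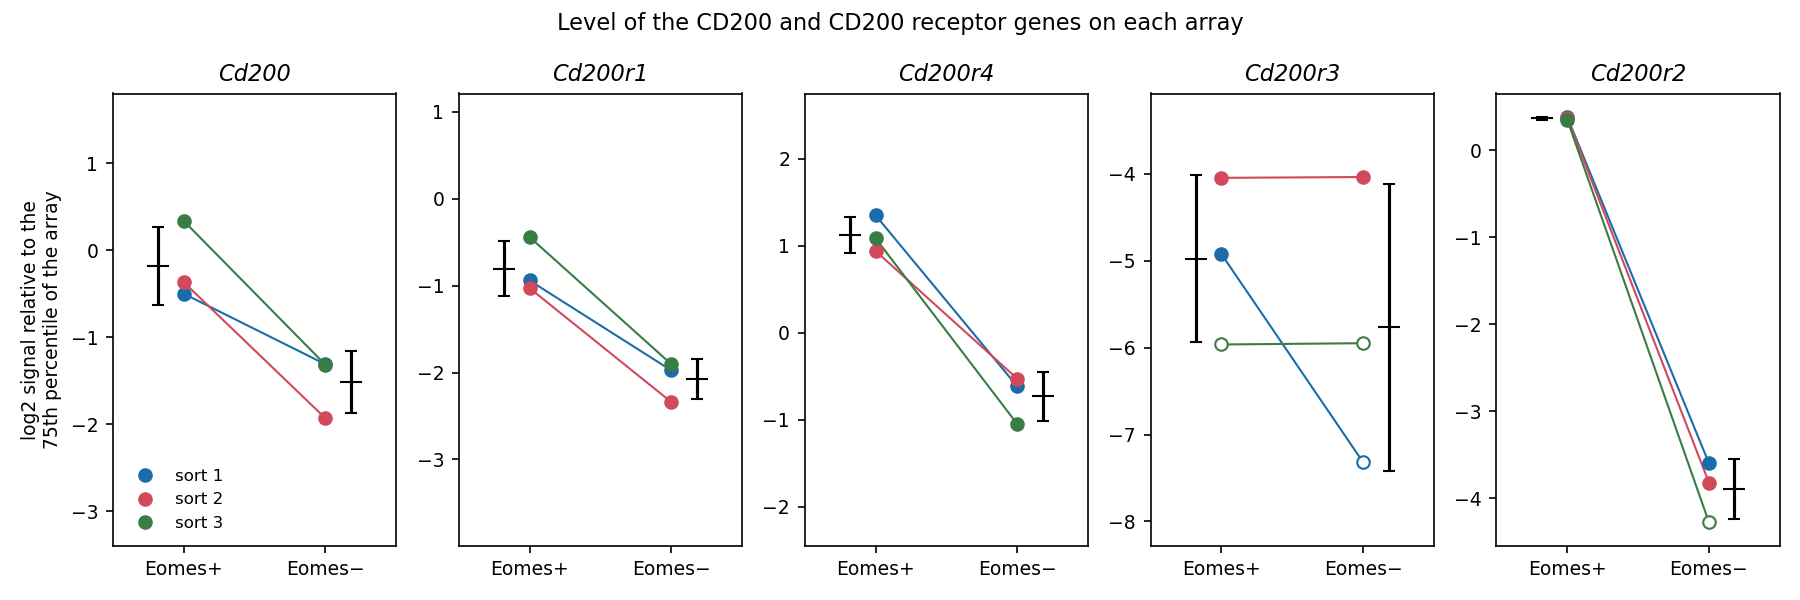
Log2 level, with each array's 75th percentile as 0 (y axis), for each gene in Eomes-positive and Eomes-negative γδ T cells (x axis). Points are arrays, coloured and joined by sort, with open points where fewer than 2 of 4 spots were well above background, and bars give the mean ± SD of the 3 arrays of a group. Each panel has its own range of the same height, and Cd200, Cd200r1, Cd200r4 and Cd200r2 have all Eomes-positive points above all Eomes-negative points.

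The ligand gene Cd200 was higher in Eomes-positive cells. Its level was -0.50, -0.37 and 0.34 in Eomes-positive cells of sorts 1, 2 and 3, and -1.31, -1.93 and -1.32 in Eomes-negative cells. All 6 arrays measured it with all 4 spots well above background, and the highest Eomes-negative level lay below the lowest Eomes-positive one. The means were -0.18 ± 0.45 in Eomes-positive cells and -1.52 ± 0.36 in Eomes-negative cells (SD, n = 3 each), a difference of 1.34 (SE 0.30), or 2.54-fold. The difference was 0.81 in sort 1, 1.56 in sort 2 and 1.65 in sort 3, so it was smallest in sort 1. Without sort 2 it was 1.23. Because RNA of whole sorted populations was measured, a larger share of cells with the transcript and more transcript per cell cannot be told apart, here or for the receptors.

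Cd200r1, the gene of the inhibitory receptor, differed in the same direction. Its level was -0.94, -1.03 and -0.44 in Eomes-positive cells of sorts 1, 2 and 3, and -1.98, -2.34 and -1.90 in Eomes-negative cells. The groups did not overlap, and within each group the array of sort 3 was the highest and that of sort 2 the lowest. The means were -0.80 ± 0.32 in Eomes-positive cells and -2.07 ± 0.23 in Eomes-negative cells (SD, n = 3 each), a difference of 1.27 (SE 0.22), or 2.41-fold. By sort the difference was 1.03, 1.31 and 1.46, and it was 1.25 without sort 2. Ligand and inhibitory receptor were thus higher in the same sorted population and by similar amounts on the log2 scale.

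Cd200r4, one of the genes for short-tailed receptors that use DAP12, was higher in Eomes-positive cells by more than Cd200r1 in each of the 3 sorts. Its level was 1.35, 0.94 and 1.09 in Eomes-positive cells and -0.62, -0.53 and -1.05 in Eomes-negative cells. No array of one group came near the other group: the gap between the lowest Eomes-positive and the highest Eomes-negative array was wider than the spread within either group. The means were 1.13 ± 0.21 in Eomes-positive cells and -0.73 ± 0.28 in Eomes-negative cells (SD, n = 3 each), a difference of 1.86 (SE 0.21), or 3.62-fold, with 1.97, 1.47 and 2.14 in the 3 sorts. The difference without sort 2 was 2.05. The part of cross-hybridisation in the signal of this probe was not tested.

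Cd200r3, which encodes a DAP12-coupled receptor known from basophils and mast cells, had no direction that the sorts shared. Its level was -4.92, -4.05 and -5.96 in Eomes-positive cells of sorts 1, 2 and 3, and -7.32, -4.04 and -5.95 in Eomes-negative cells. The probe was well above background at 3, 4 and 0 of its 4 spots on the Eomes-positive arrays and at 0, 4 and 0 on the Eomes-negative arrays. It was thus measured on 2 Eomes-positive arrays and 1 Eomes-negative array, and the 2 arrays of sort 2 were the highest of the 6 and nearly equal. The means were -4.98 ± 0.96 in Eomes-positive cells and -5.77 ± 1.65 in Eomes-negative cells (SD, n = 3 each), a difference of 0.79 (SE 0.92) that came from sort 1 alone: the differences were 2.39, -0.01 and -0.01 in sorts 1, 2 and 3. The difference was -0.01 without sort 1 and 1.19 without sort 2. It was 0.52 when each array that did not measure the probe was set at the lowest signal well above background on that array, where its own signal was lower.

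Some basophil and mast cell markers were also highest in sort 2. Of 9 listed genes, 8 were measured on each array of sort 2 and 3 on each of the other 4 arrays, and Ms4a2, a subunit gene of the IgE receptor, was measured on none. Mcpt8, a basophil protease gene, was at -7.40, -2.35 and -6.27 in Eomes-positive cells of sorts 1, 2 and 3, and at -7.43, -2.84 and -6.36 in Eomes-negative cells. Only the 2 arrays of sort 2 measured it, as was also the case for Fcer1a, Gata2 and Prss34. The summed level of the list was 2.88, 5.47 and 2.27 in Eomes-positive cells and 5.93, 7.25 and 6.07 in Eomes-negative cells, most of it from Kit, a receptor gene that other haematopoietic cells also use. Kit was at 2.69, 3.13 and 1.83 times the 75th percentile in Eomes-positive cells and at 5.71, 5.34 and 5.77 times in Eomes-negative cells, and so was not highest in sort 2 among the Eomes-negative arrays. Without Kit the sums were 0.20, 2.34 and 0.44 in Eomes-positive cells and 0.22, 1.91 and 0.30 in Eomes-negative cells. Cma1, a mast cell protease gene, was measured on 3 Eomes-positive arrays and 1 Eomes-negative array and differed by 2.59, 1.37 and 3.72 in sorts 1, 2 and 3 (limma adjusted p = 0.470 over all arrays). These genes were picked after their values had been seen. The part of these cells in the Cd200r3 signal was not tested.

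**Figure D2:**
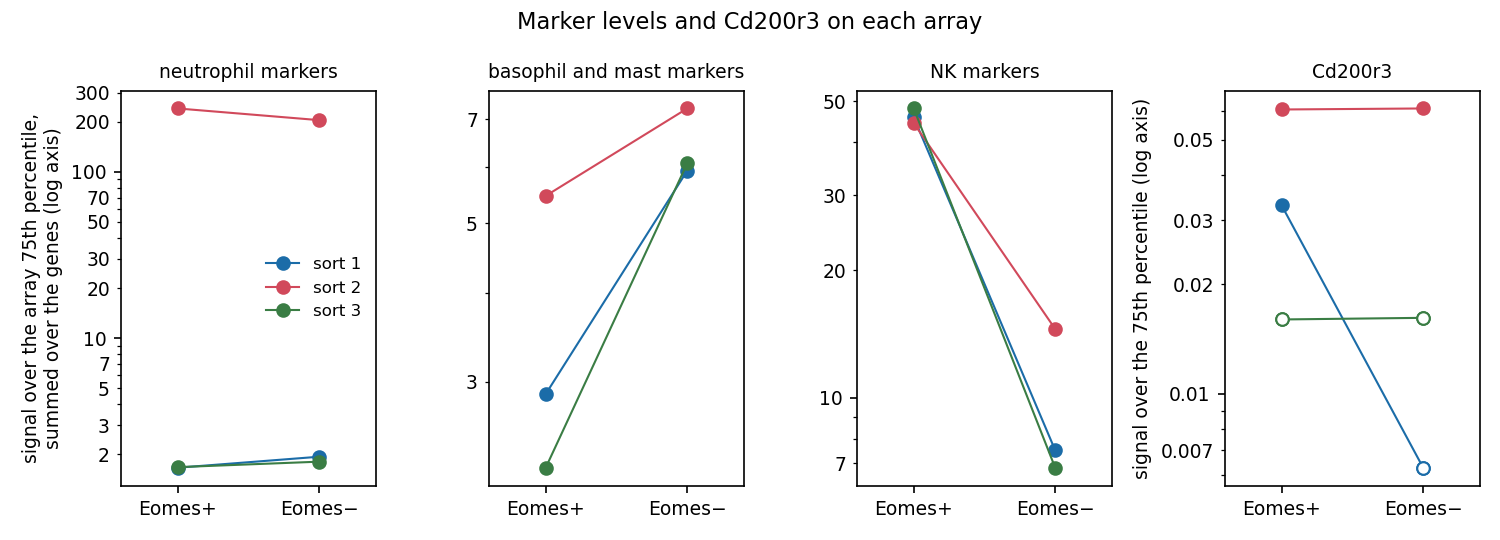
Summed signal of marker genes over the 75th percentile of the array (log y axes) in Eomes-positive and Eomes-negative cells (x axes), beside the signal of Cd200r3 on the same scale, with 1 point per array joined by sort and open points where fewer than 2 of 4 Cd200r3 spots were well above background. Both arrays of sort 2 are highest for neutrophil markers (241 and 205) and for Cd200r3, and the NK markers are at 44.4 to 48.1 in Eomes-positive cells against 6.83 to 14.5 in Eomes-negative cells.

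Cd200r2, which encodes a related receptor, had the widest difference of the family. Its level was 0.38, 0.37 and 0.35 in Eomes-positive cells of sorts 1, 2 and 3, and -3.60, -3.82 and -4.28 in Eomes-negative cells. The 3 Eomes-positive arrays were nearly equal, and the Eomes-negative arrays were all far below them. The processed intensities were 2062, 2078 and 682 in Eomes-positive cells and 139, 119 and 28.4 in Eomes-negative cells. All 4 spots were well above background on 5 arrays, but only 1 spot was on the Eomes-negative array of sort 3, so that the lowest level of the gene is the least certain one. The means were 0.37 ± 0.02 in Eomes-positive cells and -3.90 ± 0.35 in Eomes-negative cells (SD, n = 3 each), a difference of 4.27 (SE 0.20), or 19.3-fold, with 15.8-fold, 18.3-fold and 24.7-fold in the 3 sorts. Ranked by the signed difference it was number 23 of the 16413 tested genes, with Cd200r4 at 157, Cd200 at 286 and Cd200r1 at 317. The difference was 4.30 without sort 2. It was 3.22 when the background was modelled by normexp on the raw signals, which adds an offset of 50 to every spot.

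**Figure D3:**
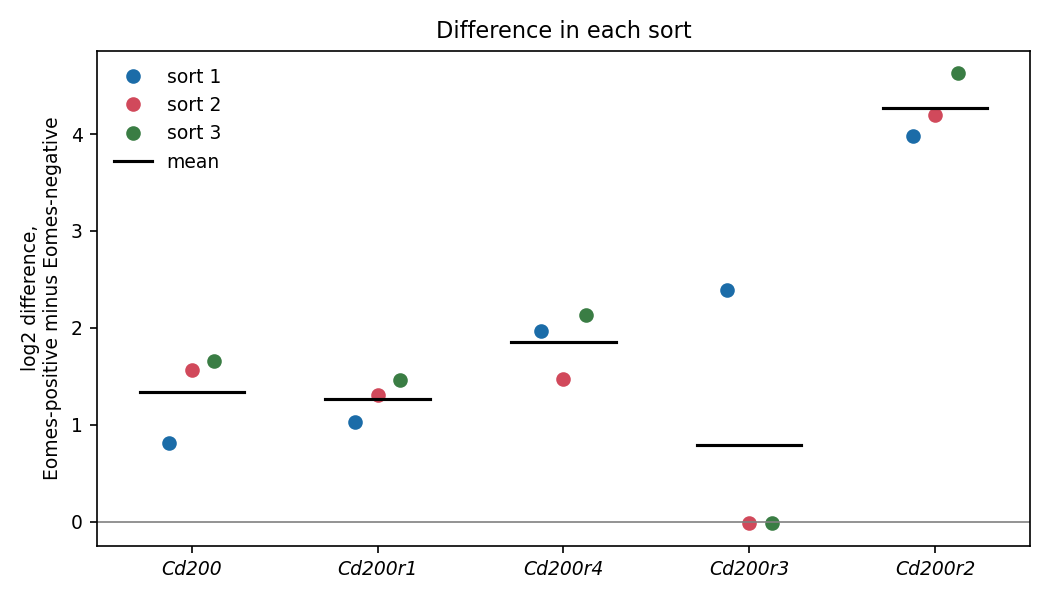
Log2 difference, Eomes-positive minus Eomes-negative, for each gene (x axis) in sorts 1, 2 and 3 (points). Cd200r2 is highest in every sort (3.98, 4.19 and 4.63), and Cd200r3 is at 2.39 in sort 1 and at -0.01 in sorts 2 and 3.

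The arrays lay on 3 slides: slide 1 held both arrays of sort 1 and the Eomes-negative array of sort 2, slide 2 held the Eomes-positive array of sort 2, and slide 3 held both arrays of sort 3. Within slide 1 the differences were 1.12 for Cd200, 1.22 for Cd200r1, 1.92 for Cd200r4, 0.75 for Cd200r3 and 4.09 for Cd200r2. Within slide 3 they were 1.65, 1.46, 2.14, -0.01 and 4.63 for the same genes in that order. With slide as a block they were 1.35, 1.32, 2.01, 0.42 and 4.32. The direction of Cd200, Cd200r1, Cd200r4 and Cd200r2 was thus the same within both slides that held both groups.

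Markers of other cells differed between the groups too. The 6 NK cell markers had summed levels of 45.8, 44.4 and 48.1 in Eomes-positive cells and 7.51, 14.5 and 6.83 in Eomes-negative cells, with all 6 measured on every array. Of these 6, 2 rose, against 1.20% of all tested genes: Klrb1c (1.66, SE 0.18, limma adjusted p = 0.013) and Klre1 (4.33, SE 0.34, limma adjusted p = 0.004), which make up most of the sum in Eomes-positive cells. Of the other 4, none of which passed the test, Ncr1 differed by 1.70 and Klra8 by 1.64, while Klrk1 differed by -0.23 and Fcgr3 by -0.39. B cell markers had summed levels of 7.27 to 11.5 in Eomes-positive cells and 14.8 to 18.3 in Eomes-negative cells, most of it from Cd79b, a chain of the B cell receptor complex. Without Cd79b the sums were 0.68, 2.90 and 1.49 in Eomes-positive cells of sorts 1, 2 and 3, and 1.19, 3.67 and 1.12 in Eomes-negative cells. None of 7 tested B cell markers passed limma's test in either direction (0 higher and 1 lower at an unadjusted p under 0.05). Among all 16413 tested genes, 2009 had an unadjusted p under 0.05 in either direction. Macrophage, monocyte and dendritic cell markers stood at 82.8, 144 and 75.2 in Eomes-positive cells of sorts 1, 2 and 3. In Eomes-negative cells they stood at 75.7, 180 and 78.8, so sort 2 was highest in both groups. Siglech made up 68.5, 67.0 and 38.3 of these sums in Eomes-positive cells and 56.2, 70.0 and 43.5 in Eomes-negative cells. None of 9 tested genes of this list passed limma's test or had an unadjusted p under 0.05. αβ T cell markers had summed levels of 2.30 to 2.54 in Eomes-positive cells and 6.37 to 9.23 in Eomes-negative cells, and 1 of 4 tested genes, Cd8b1, fell (-2.86, SE 0.36, limma adjusted p = 0.019). With sort as a block 1 B cell marker, 2 αβ T cell markers, 1 γδ T cell marker and 1 basophil or mast cell marker fell, against 4.33% of all tested genes. Of 6 endothelial markers, Cdh5, Emcn and Tek were measured on no array. The part of any such cells in the differences of the CD200 and CD200 receptor genes was not tested.

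The list of genes that act below the receptors held 28 genes for adaptors, phosphatases, GTPases and kinases of CD200R1 and of DAP12-coupled receptors, and all 28 were tested. Of these, 1 rose and 0 fell in Eomes-positive cells, against 1.20% of all tested genes that rose and 1.57% that fell (2.77% in either direction). At an unadjusted p under 0.05 limma likewise called 1 higher and 0 lower. Of all 16413 tested genes, 2009 passed that mark in either direction. The median difference was 0.08, and 24 of 28 genes lay within 0.5 of 0 on the log2 scale, as did 80.5% of all tested genes.

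The gene that rose was Lat2, which encodes a membrane adaptor also called NTAL or LAB that serves receptors with activating motifs in B cells, mast cells and NK cells. Its level was 1.32, 1.52 and 2.09 in Eomes-positive cells and 0.04, 0.37 and 0.07 in Eomes-negative cells. Its groups did not overlap, and the difference was 1.48 (SE 0.24, limma adjusted p = 0.042), but the call was lost in all 9 fits that left out 1 array or 1 sort, with slide as a block, and with no filter on dim genes. In those 9 fits 0 to 101 of all tested genes rose and 0 to 180 fell, against 197 and 257 with all arrays.

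The named partners of the receptors were picked for their roles after their values had been seen. Dok2, the adaptor that CD200R1 recruits first, was at 3.47, 3.34 and 3.49 in Eomes-positive cells and 3.70, 3.59 and 3.86 in Eomes-negative cells, a difference of -0.28 (SE 0.14, limma adjusted p = 0.559). Its groups did not overlap, the Eomes-positive arrays being the lower ones, as in 9.68% of all tested genes, and the difference did not pass the test. Dok1, which is known to restrain signalling through Dok2, differed by 0.05 (SE 0.25), Rasa1, the gene of the Ras GTPase-activating protein, by 0.58 (SE 0.31, limma adjusted p = 0.600), and Inpp5d, the gene of the lipid phosphatase SHIP1, by 0.20 (SE 0.24).

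Tyrobp, the gene of DAP12, was at 3.25, 5.40 and 4.04 in Eomes-positive cells and 2.57, 5.36 and 2.64 in Eomes-negative cells. It was highest on both arrays of sort 2, where the groups differed by 0.05, against 0.68 in sort 1 and 1.39 in sort 3, and over all arrays the difference was 0.70 (SE 0.93, limma adjusted p = 0.944). The adaptor was thus measured on every array of both groups. The kinase genes Syk and Zap70, whose products bind such activating motifs, differed by 0.36 (SE 0.95) and -0.10 (SE 0.24).

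**Figure D4:**
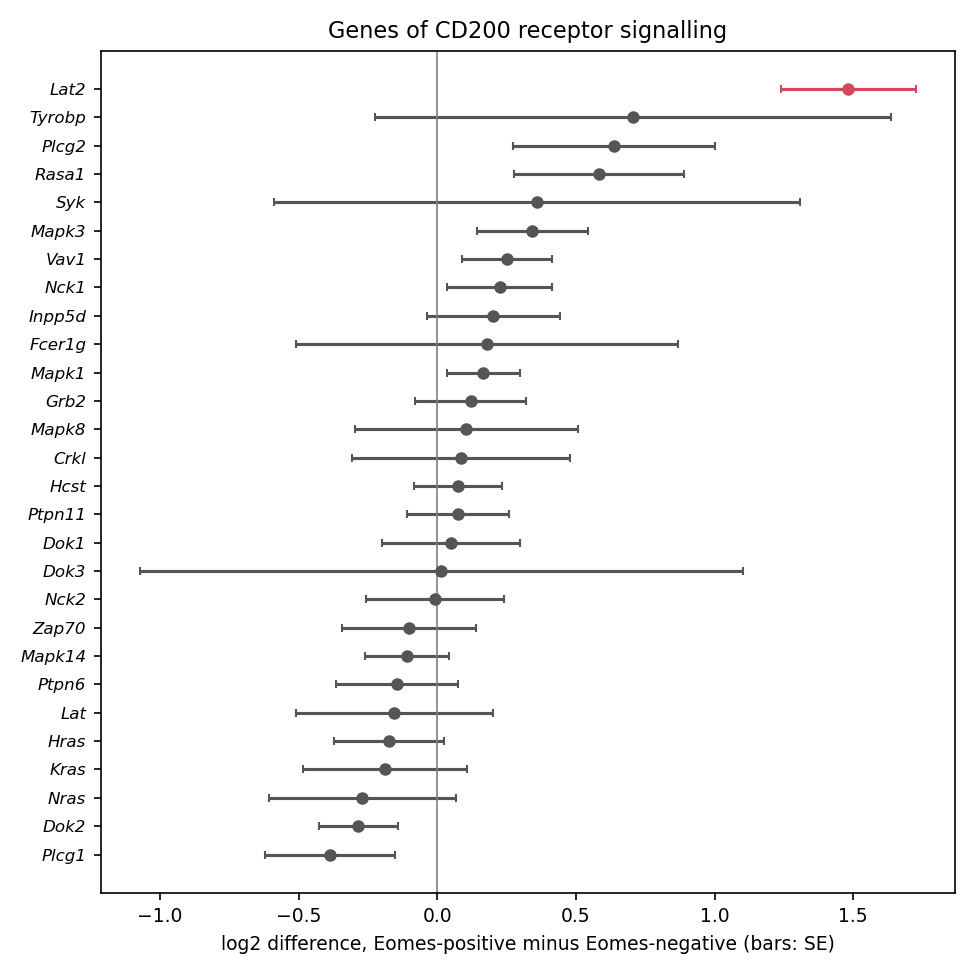
Log2 difference, Eomes-positive minus Eomes-negative (x axis, bars are SE, n = 3 arrays a group), for the 28 genes of CD200 receptor signalling (y axis, sorted). Lat2, in red, at 1.48 was the 1 gene that passed the test.

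The neighbourhood of the genes was followed over 44 to 46 Mb of chromosome 16 (mm9), where 48 probes stood for 39 gene or probe names. Of the 34 names other than the members, some of which are unnamed probes, 18 were tested. Of these 18, 1 rose and 0 fell, against 1.20% and 1.57% of all tested genes. At an unadjusted p under 0.05 in the same limma fit 2 were higher and 1 lower. Of all 16413 tested genes, 2009 passed that mark in either direction. Their median difference was 0.13. The one that rose was the unnamed probe printed above, A_55_P2187211, whose position is 1095 bases before the Cd200r2 probe on the same strand. The Cd200r2 promoter window (44866847 to 44867146, build GRCm38) lies before the unnamed probe. As far as the builds can be compared, the unnamed probe thus falls within Cd200r2 by position, and its call is not that of a gene outside the family.

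That probe was at -0.50, -0.81 and -0.84 in Eomes-positive cells and at levels between -4.37 and -3.96 in Eomes-negative cells. It was measured on 3 Eomes-positive and 2 Eomes-negative arrays, the groups were far apart on every sort, and the difference was 3.39 (SE 0.18, limma adjusted p = 0.002). The call was lost without sort 1 and without sort 2, as was every call among all tested genes. Whether it reads a transcript of Cd200r2, of another receptor gene or several of them was not tested.

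With sort as a block, under which 3.66% of all tested genes rose, 3 neighbouring names did: this probe, A_55_P2092286 and Sidt1. A_55_P2092286, at 45394692, lies on the strand of Cd200, between the Cd200 probe and the Cd200 promoter window (45409004 to 45409303, build GRCm38). As far as the builds can be compared, it thus falls within Cd200 by position. Its difference was 1.34 (SE 0.64, limma adjusted p = 0.530 without the block). Sidt1, which encodes a transmembrane protein of the SID1 family, had 1.07 (SE 0.34, limma adjusted p = 0.261 without the block). Btla, the gene of an inhibitory receptor of lymphocytes that lies between Cd200r3 and Cd200, was given for its place after its value was seen and differed by -0.21 (SE 0.16, limma adjusted p = 0.795).

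**Figure D5:**
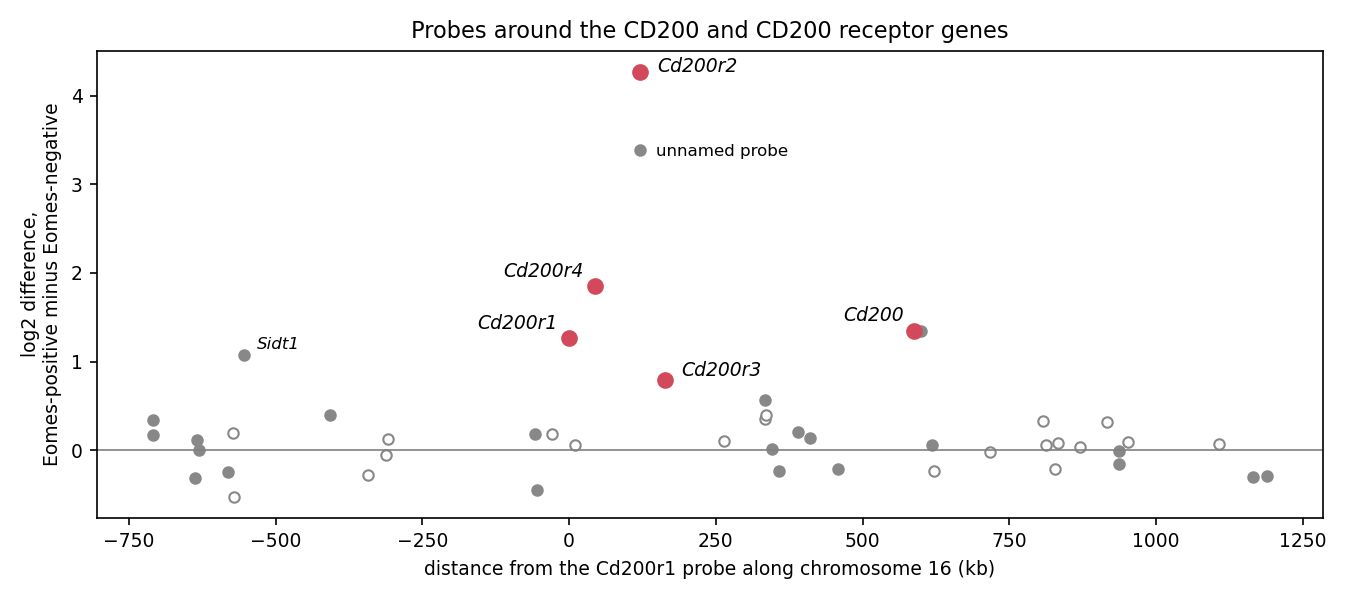
Log2 difference, Eomes-positive minus Eomes-negative (y axis), of each probe by its distance in kb from the Cd200r1 probe along chromosome 16 (x axis). Members are red, other probes grey, and open points were measured on fewer than 3 arrays. Cd200r2 at 4.27 and the unnamed probe beside it at 3.39 stand highest.

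Promoter sequence from RefSeq (GRCm38.p6, 250 bases before to 50 after the start) was matched for 4 of the 5 genes, all but Cd200r1. The Cd200r2 promoter is shown because this gene differed most between cells sorted on a T-box factor's locus. Capitals mark a T-box half-site, TCACACC, which begins at -149 from the start. The Cd200r4 and Cd200r3 promoters are shown with the run of 32 bases they share in capitals.
Cd200r2 (chr16:44866847-44867146, plus strand): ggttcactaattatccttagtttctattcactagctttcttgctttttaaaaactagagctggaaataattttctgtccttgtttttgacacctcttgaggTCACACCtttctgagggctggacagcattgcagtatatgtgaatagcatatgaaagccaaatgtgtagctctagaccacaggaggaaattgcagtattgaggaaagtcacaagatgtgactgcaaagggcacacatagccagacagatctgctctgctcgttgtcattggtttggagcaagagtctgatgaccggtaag
Cd200r4 (chr16:44820478-44820777, plus strand): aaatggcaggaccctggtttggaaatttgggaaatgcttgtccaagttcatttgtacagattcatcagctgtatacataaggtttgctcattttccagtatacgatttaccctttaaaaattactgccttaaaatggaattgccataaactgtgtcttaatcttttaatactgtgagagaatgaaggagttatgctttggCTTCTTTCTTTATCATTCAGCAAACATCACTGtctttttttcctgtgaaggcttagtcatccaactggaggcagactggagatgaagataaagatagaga
Cd200r3 (chr16:44943428-44943727, plus strand): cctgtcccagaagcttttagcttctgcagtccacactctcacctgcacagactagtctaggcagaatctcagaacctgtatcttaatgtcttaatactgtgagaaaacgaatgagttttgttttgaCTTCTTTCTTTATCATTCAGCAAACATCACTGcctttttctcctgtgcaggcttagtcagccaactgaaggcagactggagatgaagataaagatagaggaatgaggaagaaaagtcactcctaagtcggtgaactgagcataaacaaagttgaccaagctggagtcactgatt

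Searched on both strands, TCACACC was found in 3.98% of 32851 promoters of this length, and among the 4 matched genes in Cd200r2 alone. The half-site AGGTCA of retinoid-related orphan receptors, present in 16.26% of promoters, begins in Cd200r2 at -152 and overlaps the T-box half-site. The RUNX site TGTGGT, in 16.76% of promoters, lies in Cd200r2 at -75 on the minus strand. The ETS site ACAGGAAG, in 3.58% of promoters, was in none of the 4, and the promoters of Cd200, Cd200r3 and Cd200r4 held none of the 4 motifs. A match shows only that these letters stand in the window. At the best ungapped offset of the 300-base windows, which can leave bases at the ends unpaired, the Cd200r4 and Cd200r3 promoters matched at 155 bases. The other pairs matched at 88 to 93. Cd200r4 was separated between the groups. The groups overlapped for Cd200r3, but it was measured on only 3 of 6 arrays, so nothing is read from setting the 2 genes side by side.

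Lists for other γδ and T cell programmes in which these genes are known gave the setting of the 2 groups. Of 14 tested genes of IL-17-producing γδ T cells, the γδ cells on which CD200R1 is known, 10 fell and 0 rose in Eomes-positive cells. Among all tested genes 1.57% fell and 1.20% rose. At an unadjusted p under 0.05 limma called 0 of the list higher and 14 lower, and 2009 of all 16413 tested genes in either direction. The median difference was -4.51 against -0.01 for all tested genes, while Cd200r1 was higher in Eomes-positive cells. Of the 14, Il23r, Il1r1 and Il17f were tested only because the Eomes-negative arrays measured them. Among the 11 measured in both groups 8 fell, with a median difference of -4.37. Blk, a Src family kinase gene, differed by -6.93 (SE 0.95, limma adjusted p = 0.024) and Il17re, a receptor chain for IL-17 cytokines, by -6.55 (SE 0.55, limma adjusted p = 0.005). Both were measured on all 3 Eomes-negative arrays but on 1 of 3 Eomes-positive arrays, so the size of these differences is uncertain. Il23r and Il1r1, receptors for IL-23 and IL-1, were well above background on no Eomes-positive array and on all 3 Eomes-negative arrays. Set against the lowest signal well above background on each Eomes-positive array, Il23r was 58.6-fold lower in those cells and Il1r1 60.0-fold lower. These folds are not strict lower limits, because a probe can go unmeasured above that signal, as that of Pax5 did on the Eomes-positive arrays. With sort as a block 12 of the 14 fell, and 4.33% of all tested genes did. None of the 14 passed without sort 1 or without sort 2, and 4 passed without sort 3. Over all tested genes likewise none passed without sort 1 or without sort 2, and 41 rose and 28 fell without sort 3. Il17a was measured on no array.

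Of 9 tested genes of follicular helper T cells, which are known for Cd200, 2 rose and 1 fell, against 1.20% and 1.57% of all tested genes, with a median difference of 0.97. Cxcr5, the chemokine receptor of B cell follicles, rose by 4.18 (SE 0.28, limma adjusted p = 0.003) and Sh2d1a, the gene of the adaptor SAP, by 1.45 (SE 0.17, limma adjusted p = 0.014), while Icos, a costimulatory receptor, fell by 1.49 on the log2 scale (SE 0.22, limma adjusted p = 0.032). With sort as a block 4 rose, against 3.66% of all tested genes, adding Bcl6 (1.30) and Pdcd1 (0.97). Leaving out sort 1 or sort 2 left none of the 3 calls, and leaving out sort 3 left 1 higher and 0 lower. The same omissions left no call among all tested genes without sort 1 or sort 2, and 41 higher and 28 lower without sort 3. Il21 was measured on no array.

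The genes most like each member were taken by Pearson's r of the log2 level over the 6 arrays, which share 2 groups and 3 sorts, so that any gene with a steady group difference scores high. Cd200 was most like Sh2b3 (r = 0.998), Lpar2 (0.996) and E2f5 (0.995). Cd200r1 was most like Spata13 (0.999), St3gal4 (0.999) and Zfand3 (0.997). Cd200r4 was like Rasgef1c (0.998) and Zc3h12d (0.996). Cd200r2 was most like Rapgef3, Ctla2b and Ctla2a, each with r = 0.999. Cd200r3 was most like Stard6 (0.981), Yif1b (0.977) and Sptbn4 (0.971). Cd200r3 and Stard6 were each measured on only 3 of the 6 arrays, so the values for Cd200r3 rest partly on signal not well above background. Among the members, r was 0.989 for Cd200 with Cd200r1 and 0.987 for Cd200r2 with Cd200r4, and between -0.03 and 0.35 for Cd200r3 with each of the other 4. The Cd200r4 probe shares 27 bases with the unnamed probe placed within Cd200r2. The part of cross-hybridisation in the r of Cd200r2 with Cd200r4 was not tested.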

How the data were processed

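RNA of sorted cells was amplified in 1 round, labelled with 1 dye and hybridised to Agilent mouse arrays, and the authors deposited 1 scanner table per sample, made with Agilent Feature Extraction 10.7.3.1 per the submitters' processing notes. The deposited values used here are processed intensity per spot, which Feature Extraction had already corrected for background per the file headers, on a linear scale. The series' value table, also deposited by the authors as linear intensity, served as an alternative; its array 75th percentiles lie at 1497 to 1506, and its normalisation is not given in the sources used here.

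Each array held 162570 spots, of which 4854 were controls and were left out, and 39429 probes. For each probe the log2 intensity was averaged over its spots without outlier flags, less the log2 of that array's 75th percentile. Probes were called measured on an array if 50% or more of the spots passed the scanner software's flag for signal well above background. Names were taken from RefSeq for 27508 probes matched by accession, which changed the name of 2017 of them, and 11921 probes kept the name in the file. Of several probes of a gene, the brightest over all arrays was used. The 16413 genes measured on at least 3 of 6 arrays were fitted in limma 3.58.1 (R 4.3.3) with group as the only term and tested by lmFit and eBayes with Benjamini-Hochberg adjustment at 0.05; this test was checked on simulated data. For so few arrays the smallest two-sided exact permutation p is 0.1, so no such test is given for single values, and the number of arrays limits the precision. Sequence matching and figures used Python 3.11.15, pandas 2.3.3 and matplotlib 3.10.9.

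Same-numbered arrays came from the same sort, with the same age and RNA input per the labels. Their deviations from the group means correlated at 0.81, 0.82 and 0.81. For different numbers r was -0.57 to -0.26, but centring on 3 arrays a group itself pushes these values below 0. The numbers thus pair the samples, and sort as a block was run as an alternative. SEs above are from the fit without the block. With it they were 0.20 for Cd200, 0.12 for Cd200r1, 0.16 for Cd200r4, 0.56 for Cd200r3 and 0.16 for Cd200r2. The sorts are described as independent, so the 3 arrays of a group are separate pools of mice.

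The members and lists were chosen with earlier results of these data known. Named genes were all members, the genes of the signalling list and the neighbourhood that passed the test, up to 4 from each list of other cell programmes, and the 3 genes most like each member, of which 1 is not reported here. Alternatives were the deposited values, normexp background correction, median, quantile and other scaling, outlier spots kept, the mean of a gene's probes, a filter on all arrays or none, sort or slide as a block, single slides, and each array or sort left out.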

Additional observations from a re-analysis of the deposited data

How the results depend on the processing

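The differences of Cd200 (1.09 to 1.65), Cd200r1 (1.02 to 1.46), Cd200r4 (1.70 to 2.14) and Cd200r2 (3.22 to 4.63) kept their sign in all 20 alternative settings. Beyond 1 SD lay Cd200r2 under normexp (3.22) and within slide 3 (4.63), and Cd200r4 within slide 3 (2.14). Cd200r3 ran from -0.01 to 1.65 and changed sign without sort 1 (-0.0121) and within slide 3 (-0.0149); it was measured on 3 of 6 arrays. Over all single arrays or sorts left out, the differences ranged from 1.09 to 1.61 for Cd200, 1.09 to 1.39 for Cd200r1, 1.70 to 2.05 for Cd200r4, -0.01 to 1.65 for Cd200r3 and 4.08 to 4.42 for Cd200r2.

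Counts of calls moved more. With sort as a replicate block, which pairs the arrays of a sort, 600 genes rose and 710 fell, against 197 and 257 without it. Under it 3 neighbours and 4 follicular helper genes rose; Il17f, Il7r and the marker genes counted above then fell too. Among the listed and neighbouring genes tested above, the block changed no other call. Requiring measurement on all 6 arrays left 166 lower genes, and no filter gave 92 higher and 154 lower. With slide as a block, 0 signalling genes and 2 neighbours rose and 0 follicular helper genes fell; with no filter, 0 signalling genes rose. With 1 array or sort left out, 0 to 101 genes rose and 0 to 180 fell over all genes. In those fits 0 signalling genes, 0 to 1 neighbours and 0 to 2 follicular helper genes rose, and 0 to 10 genes of the IL-17 list and 0 follicular helper genes fell. The cause of these shifts was not tested beyond the smaller number of arrays. Dim signals limit Cd200r3 and the Eomes-negative levels of Cd200r2.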
